A study of Mus musculus with 12 samples.

Results

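The insulin-like growth factor (IGF) genes described here were the ligands Igf1 and Igf2, the receptors Igf1r and Insr, and the binding proteins Igfbp2, Igfbp3, Igfbp4, Igfbp5, Igfbp6 and Igfbp7. They were chosen by name as the main parts of this system, and all 10 were found among the 23301 gene names that the 12 expression files shared. RNA-seq of poly-A RNA had been done on mammary tissue of 12-week-old female mice in 4 groups of 3 replicates. Normal was tissue of wild-type FVB mice, with the abdominal and inguinal glands of 3 mice pooled for each replicate. Tumor was a thoracic gland tumor of 1 untreated MMTV-PyVT mouse per replicate, and MMTV-PyVT mice carry the polyoma middle T oncogene under the MMTV promoter, which is active in mammary epithelium. DMSO and C646 were tumors of injected MMTV-PyVT mice, the biggest tumor of each of 3 mice per group. C646 is an inhibitor of the p300 acetyltransferase and DMSO its solvent, and the labels give 1 mg/kg for both groups. Disease, gland position and pooling changed together between normal and tumor, so their parts in a difference cannot be told apart.

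IGF1 and IGF2 are secreted growth factors that signal for growth and survival mainly through the receptor tyrosine kinase IGF1R, and the closely related insulin receptor can also bind them. Outside the cell most IGF is held by binding proteins, which lengthen its life, keep it from the receptor or release it when proteases cut them. IGFBP7 belongs to the family by sequence but binds IGFs weakly. In the mammary gland, growth hormone acts on the stroma to raise Igf1, which drives the growth of ducts, and Igfbp5 is known for its rise when the gland regresses after weaning.

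Levels are given in FPKM, the fragments of a gene scaled to its transcript length and to the mapped fragments of the library, as the authors computed them, so levels of different genes can be set side by side per length. The paper states a sequencing depth for the libraries, but the depth of each sample is unknown, because FPKM keeps no read counts. The other cell types of the tissue differed strongly between normal and tumor. The summed FPKM of 8 adipocyte markers was 17219 to 21944 in the normal samples and 97.0 to 1264 in the tumors, and all 8 fell (limma, adjusted p under 0.05, here and below). Of 7 fibroblast markers 6 fell, with sums of 1821 to 1957 in normal and 249 to 554 in tumor. All 7 endothelial and all 4 pericyte markers fell as well. The pericyte marker Abcc9 reached at most 0.943 FPKM in tumor and passed the filter of 1 FPKM through the normal samples alone, so it could be called only as lower. Lymphocyte markers summed to 263 to 337 FPKM in normal and 0.549 to 1.52 in tumor, with Ms4a1 listed at 0 in every tumor. Of 5 macrophage markers 4 fell, and of 6 myoepithelial markers 4 fell and 1 rose. Luminal epithelial markers rose in 5 of 6 cases, from sums of 406 to 876 to sums of 2572 to 3321. Skeletal muscle markers, which mark neither gland nor tumor, summed to 8.98 to 65.8 FPKM in normal and 1213 to 3326 in tumor, and all 4 rose. Beside these marker counts, 31.7% of all 13031 genes tested fell and 28.8% rose. In whole tissue, fewer cells of a type and less RNA per cell cannot be told apart, and the part of these shifts in the IGF results was not tested.

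Igfbp2 and Igfbp5 are neighbours on mouse chromosome 1 in mm10, at chr1:72824503-72852474 on the plus strand and chr1:72857932-72874884 on the minus strand. The 3′ ends face each other across 5457 bases. Both rose in tumors, while Igfbp4, at chr11:99041244-99054392 on the plus strand, fell. The 250 bases before a RefSeq start of each of these 3 genes (GRCm38.p6, the same build as mm10) are shown because Igfbp2 and Igfbp5 are the neighbours that rose and Igfbp4 is an abundant binding protein that fell. Igfbp2 has a further RefSeq start, and the window shown is the one farther upstream. They are written 5′ to 3′ in the direction of each gene, with TATAAA and GGGCGG in capitals where either strand held them. The windows are chr1:72824230-72824479 for Igfbp2, chr1:72874866-72875115 for Igfbp5 and chr11:99040994-99041243 for Igfbp4.
Igfbp2: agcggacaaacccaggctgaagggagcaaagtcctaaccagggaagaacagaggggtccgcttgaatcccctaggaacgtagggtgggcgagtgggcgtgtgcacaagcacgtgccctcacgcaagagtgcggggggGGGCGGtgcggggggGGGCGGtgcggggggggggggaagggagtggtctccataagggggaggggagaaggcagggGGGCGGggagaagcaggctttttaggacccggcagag
Igfbp5: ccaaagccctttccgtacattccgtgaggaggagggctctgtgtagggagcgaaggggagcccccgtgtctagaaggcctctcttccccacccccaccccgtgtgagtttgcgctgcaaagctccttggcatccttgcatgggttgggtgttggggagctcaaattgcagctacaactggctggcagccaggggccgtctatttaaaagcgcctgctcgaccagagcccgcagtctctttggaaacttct
Igfbp4: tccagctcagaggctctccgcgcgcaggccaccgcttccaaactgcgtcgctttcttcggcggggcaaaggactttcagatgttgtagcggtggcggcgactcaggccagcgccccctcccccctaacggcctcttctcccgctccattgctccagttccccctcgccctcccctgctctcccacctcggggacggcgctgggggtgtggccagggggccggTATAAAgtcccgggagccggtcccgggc
The Igfbp4 window held TATAAA 28 bases before the start. The Igfbp2 window held GGGCGG, the core of a GC box, at 3 places, and the Igfbp5 window held neither motif. The window of the other Igfbp2 start held neither as well. Among the genes that fell, the Igfbp7 window held GGGCGG at 4 places, counting either strand. The window of Igfbp6, which also fell, held TATAAA on the strand opposite the gene, 148 bases before the start. RefSeq windows were matched for 9 of the 10 genes and numbered 13, since some genes have several starts. TATAAA was in 2 of the 13 windows, against 12.37% of 32851 windows of all genes, and GGGCGG was in 5, against 32.74%. TTCNNNGAA, the letters bound by STAT factors, was in 0 of the 13 and in 7.02% of all windows.

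The first comparison asked how the expression of the IGF system differed between normal mammary tissue and MMTV-PyVT tumors. Both ligands and both receptors fell, as did Igfbp4, Igfbp6 and Igfbp7, while Igfbp2 and Igfbp5 rose and Igfbp3 did not pass the test. The largest falls were those of Igf1, 25.8-fold, and of Igfbp6, 14.7-fold, as ratios of group means. Igfbp5 rose 7.62-fold and was the most abundant of the 10 in every tumor. By limma with Benjamini-Hochberg adjustment over 13031 genes, 2 of the 10 were higher, where 28.8% of all genes were higher, and 7 were lower, where 31.7% of all genes were lower. The same 2 genes lay above the normal range in every tumor and the same 7 below it, beside 33.1% and 35.8% of all genes. Igf2 and Igf1r passed the filter on low values through the normal samples alone, with no tumor at 1 FPKM. They could be tested only because they were high there, and could be called only as lower. The counts and the median that hold them are given as descriptions. Igf1 was at 1 FPKM or more in the 3 normal samples and 2 of the tumors. The median log2 fold change was -1.65 over the 10 genes and -0.02 over all genes tested.

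**Figure D1:**
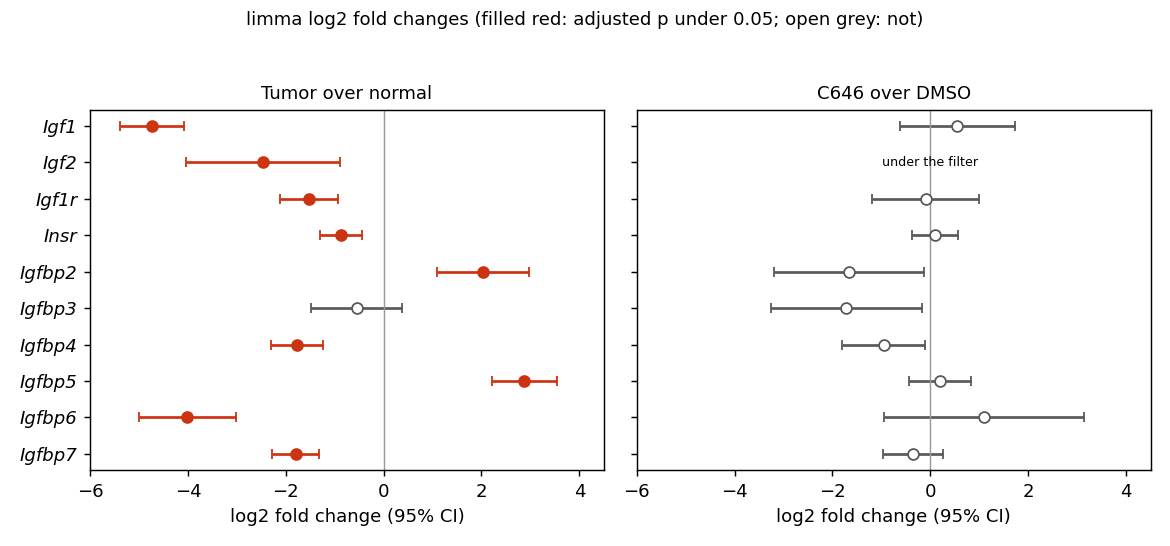
log2 fold changes with their 95% confidence intervals for the 10 genes, tumor over normal on the left and C646 over DMSO on the right, from limma on log2(FPKM + 0.03125). Filled red points passed an adjusted p of 0.05. On the left 7 points lie below 0 and 2 above it, and on the right all points are open.

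Igf1, the growth hormone-dependent ligand, stood at 35.5, 36.4 and 33.8 FPKM in the 3 normal samples. It stood at 1.91, 1.33 and 0.863 FPKM in the 3 tumors. The lowest normal sample was thus far above the highest tumor, and the log2 fold change was -4.73 (SE 0.276, limma adjusted p = 2.65e-05). Ghr, the growth hormone receptor, lay at 177 to 199 FPKM in normal and 7.48 to 13.7 in tumor, a log2 fold change of -4.36 (limma adjusted p = 2.37e-05).

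Igf2, the fetal growth factor, was the lowest of the 10 in each group. Its FPKM was 1.66, 1.76 and 1.80 in normal and 0.427, 0.643 and 0.0771 in tumor. The groups did not overlap, and the log2 fold change was -2.46 (SE 0.671), or -1.01 with a pseudocount of 1. Igf2 passed the filter through the normal samples alone, so its direction was fixed in advance and no p is given. The antisense gene Igf2os overlaps 7124 bases of Igf2, and the libraries kept no strand, so reads of the 2 genes cannot be told apart there. Igf1 exceeded Igf2 by 18.8 to 21.5 times in normal samples and by 2.06 to 11.2 times in tumors. Igf1 and Igf2 together came to 37.0 ± 1.29 FPKM in normal and 1.75 ± 0.723 FPKM in tumor (SD, n = 3).

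Igf1r, the main receptor of both ligands, had 2.22, 2.21 and 2.03 FPKM in normal and 0.690, 0.653 and 0.850 FPKM in tumor. Every tumor was below every normal sample, with a log2 fold change of -1.53 (SE 0.255), or -0.87 with a pseudocount of 1. As with Igf2, the filter was passed through the normal samples alone, so no p is given for Igf1r. Insr, the insulin receptor, had 6.21, 5.99 and 7.72 FPKM in normal and 3.15, 3.79 and 3.83 FPKM in tumor. Its fall was the smallest among those that passed, 1.85-fold by the means (log2 fold change -0.88, SE 0.182, limma adjusted p = 0.00466). Insr was above Igf1r in every sample, by 2.71 to 3.80 times in normal and by 4.51 to 5.81 times in tumor.

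Igfbp5, a binding protein that also attaches to the extracellular matrix, was the member with the largest rise. It had 115, 109 and 146 FPKM in normal and 1306, 614 and 893 FPKM in tumor. The lowest tumor was several times above the highest normal sample, and the log2 fold change was 2.87 (SE 0.285, limma adjusted p = 1.68e-04). Ranked by FPKM among 23704 names, Igfbp5 stood between places 569 and 866 in normal samples and between places 96 and 148 in tumors.

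Igfbp2, which binds IGF2 with preference, had 18.0, 11.5 and 8.75 FPKM in normal and 53.8, 29.0 and 79.5 FPKM in tumor. In FPKM the tumors spread more widely than the normal samples, without overlap between the groups. Its log2 fold change was 2.03 (SE 0.402, limma adjusted p = 0.00375).

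Igfbp4, an inhibitor of IGF action that is cut by pregnancy-associated plasma protein A, had 209, 234 and 214 FPKM in normal and 69.0, 83.4 and 46.0 FPKM in tumor. The log2 fold change was -1.77 (SE 0.223, limma adjusted p = 4.80e-04). Igfbp7, which is abundant in vessel walls and stroma, had 439, 472 and 459 FPKM in normal and 163, 141 and 98.3 FPKM in tumor. It was the highest of the 10 in every normal sample and came after Igfbp5 in every tumor. Its log2 fold change was -1.80 (SE 0.205, limma adjusted p = 3.09e-04).

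Igfbp6, which binds IGF2 far more tightly than IGF1, had 91.0, 140 and 83.5 FPKM in normal and 12.2, 5.44 and 3.78 FPKM in tumor. It had the steepest fall of the binding proteins, with a log2 fold change of -4.01 (SE 0.423, limma adjusted p = 2.20e-04). Igfbp3, the main carrier of IGF in the blood, had 34.7, 25.9 and 45.6 FPKM in normal and 13.1, 38.1 and 26.0 FPKM in tumor. The groups overlapped, and the log2 fold change of -0.55 (95% interval -1.48 to 0.37, limma adjusted p = 0.256) did not pass. It was -0.13 without Tumor replicate 1 and -0.90 without Tumor replicate 2, with limma adjusted p between 0.064 and 0.698 over the alternatives.

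**Figure D2:**
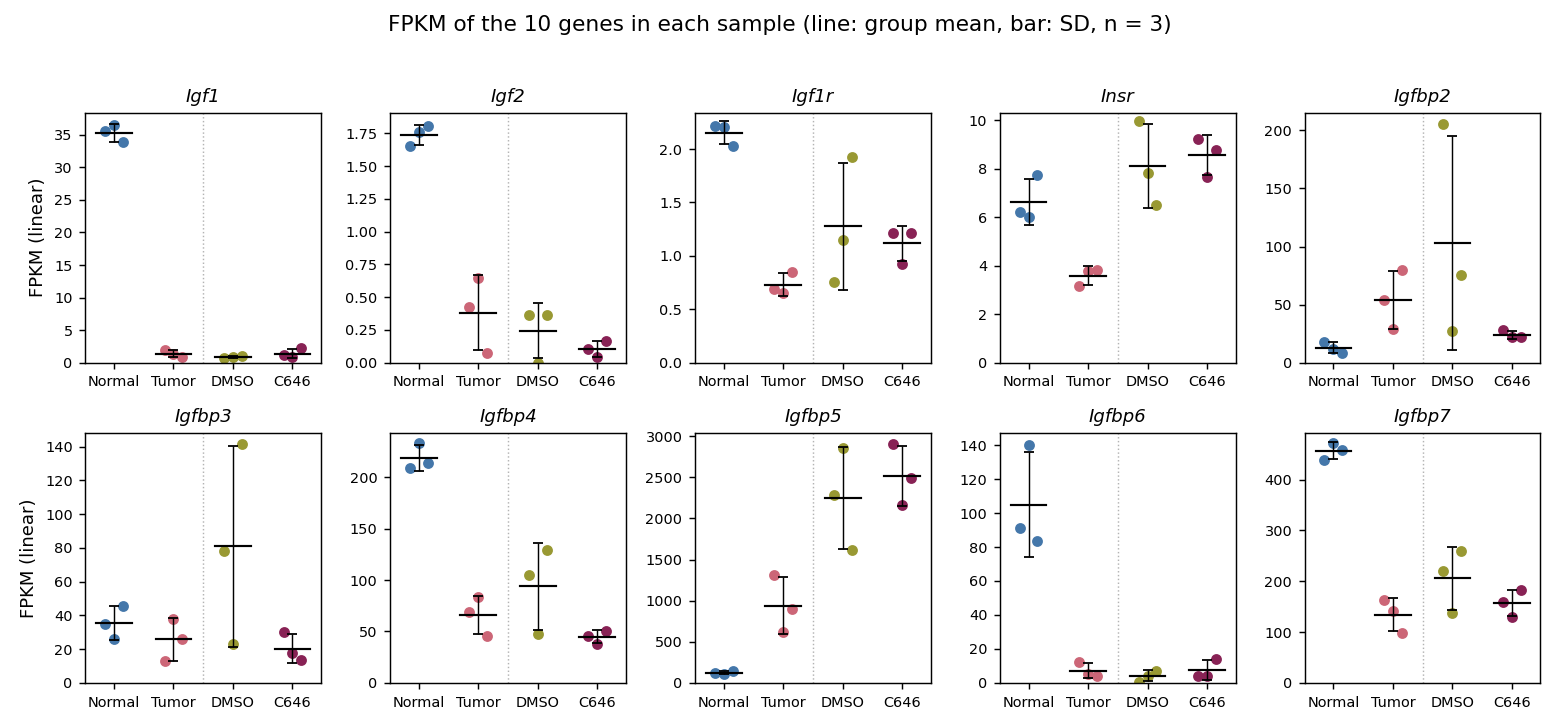
FPKM of the 10 genes in each of the 12 samples on linear axes, 1 panel per gene. Points are samples, horizontal lines group means and bars the SD of 3 replicates, and the dotted line divides the 2 experiments, which were processed apart. Igf1 lies between 33.8 and 36.4 in normal and at 2.22 or less elsewhere, Igfbp5 is highest in the injected tumors, and DMSO spreads widely for Igfbp2, Igfbp3 and Igfbp4.

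The binding proteins moved in opposite directions, and their sum differed less than its parts. The 6 binding proteins together came to 952 ± 42.9 FPKM in normal and 1225 ± 360 FPKM in tumor (SD, n = 3), and the tumor range of 911 to 1617 FPKM covered the normal range of 906 to 992 FPKM almost whole. Without Igfbp5 the sum was 829 ± 48.1 FPKM in normal and 287 ± 30.0 FPKM in tumor. Igfbp5 made up 11.0% to 15.2% of the sum in normal samples and 67.4% to 80.8% in tumors. Igfbp7, nearly level among the normal samples at 47.6% to 48.4%, made up 8.58% to 15.4% in tumors. Igfbp4 went from 22.4% to 23.6% of the sum in normal to 4.01% to 9.16% in tumors, and Igfbp6 from a mean of 11.0% to 0.561%. Shares of a sum depend on each other, and they are given as descriptions.

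**Figure D3:**
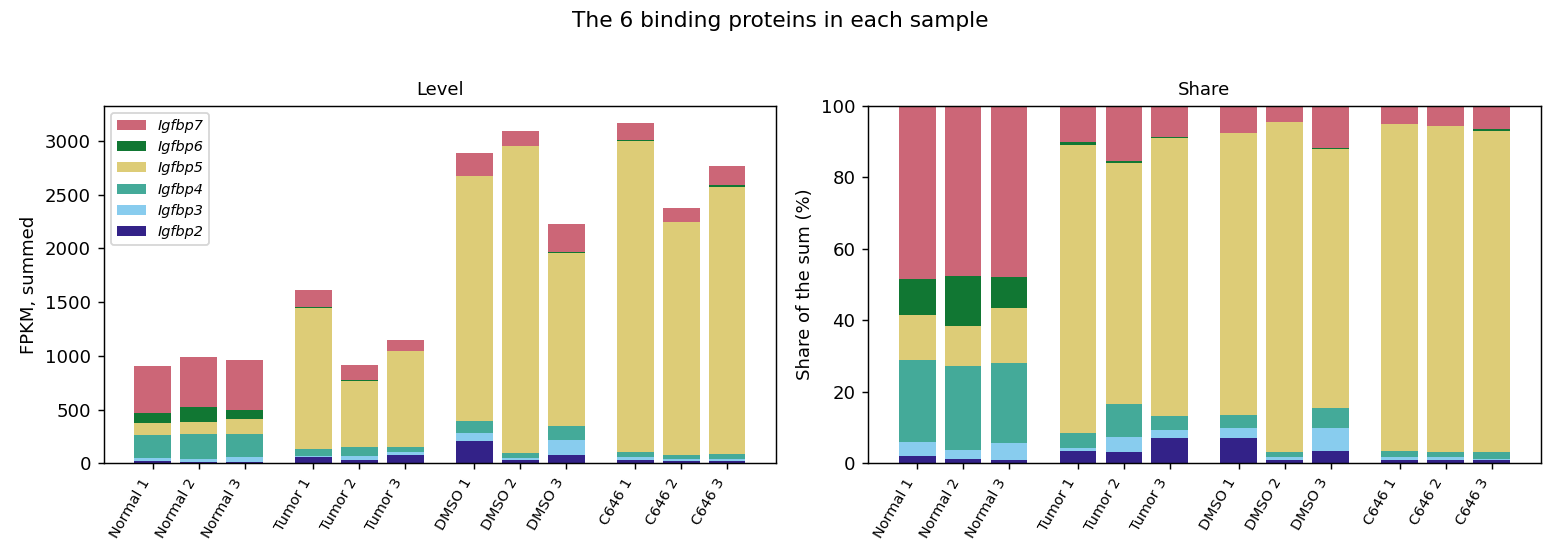
The 6 binding proteins in each sample, as stacked FPKM on the left and as percent of their sum on the right. Igfbp7 is the widest band in the 3 normal samples, at 47.6% to 48.4%, and Igfbp5 the widest in the 9 tumors, at 67.4% to 92.2%.

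In order of level, the normal samples held Igfbp7, Igfbp4, Igfbp5, Igfbp6, Igfbp3, Igf1, Igfbp2, Insr, Igf1r and Igf2. Igfbp5 and Igfbp6 overlapped in range, as did Igfbp3 and Igf1, and the other neighbours in this order did not. In untreated tumors the order was Igfbp5, Igfbp7, Igfbp4, Igfbp2, Igfbp3, Igfbp6, Insr, Igf1, Igf1r and Igf2. There the ranges of Igfbp4 and Igfbp2, of Igfbp2 and Igfbp3, and of Igfbp6 and Insr overlapped.

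The wider pathway was read from 38 listed genes, 36 of which had a value and 26 of which passed the filter in the normal and tumor samples. Of these 26, 6 were higher and 13 lower in tumors, with a median log2 fold change of -0.50, where 28.8% and 31.7% of all genes tested were higher and lower. The 19 calls became 10 without Normal replicate 3 and 12 without Normal replicate 1 or 2. Leaving out a Normal replicate also takes genes at 1 FPKM in the normal samples alone out of the test. Adam12 and Igf2bp2 reached 1 FPKM in no tumor and passed the filter through the normal samples alone, so they could be called only as lower, and the counts that hold them are given as descriptions. Among other ligands, receptors and carriers, 2 of 7 listed genes could be tested and both rose. Igf2r, which takes IGF2 up for breakdown in lysosomes, rose from 13.5 to 15.9 FPKM in normal to 36.3 to 47.0 FPKM in tumor (log2 fold change 1.52, limma adjusted p = 1.49e-04). Igfals, the acid-labile subunit that joins IGF and Igfbp3 in a larger carrier, rose less evenly, with 10.7 to 13.4 FPKM in normal and 14.9 to 41.3 FPKM in tumor (log2 fold change 1.22, limma adjusted p = 0.0252). Ins1 and Igfbp1 were listed at 0 in every sample.

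Of 7 proteases that cut binding proteins and inhibitors of such proteases, 4 could be tested and 3 fell, beside 31.7% of all genes. Adam12, 1 of the 3, could be called only as lower, and the count is too small to read against that share. Htra1, a secreted protease, had 121 to 147 FPKM in normal and 6.16 to 22.3 FPKM in tumor, a log2 fold change of -3.60 (limma adjusted p = 3.56e-04). Adam12, a membrane protease, had 3.89 to 5.80 FPKM in normal and 0.366 to 0.561 FPKM in tumor (log2 fold change -3.28, or -1.99 with a pseudocount of 1). Stc2, which inhibits pregnancy-associated plasma protein A, had a log2 fold change of -1.40. Pappa and Pappa2, the genes of the main proteases of Igfbp4 and Igfbp5, stayed under 0.5 FPKM in every sample and were not tested.

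Below the receptors, 14 of 15 listed signalling genes were tested, and 7 fell and 3 rose, beside 31.7% and 28.8% of all genes. Of these the kinase gene Akt2 (log2 fold change -1.92), the adaptor gene Grb14 (-1.21) and Pdpk1 (-1.14), the gene of a kinase that activates AKT, had the largest falls. Irs2, Shc1, Pik3ca and Foxo1 were the other 4 that fell. The genes that rose were Pik3r1 (log2 fold change 0.86) and Pik3r2 (0.84), which encode regulatory subunits of PI3 kinase, and Foxo3 (0.71), a transcription factor that AKT holds out of the nucleus. Irs1, Grb2, Grb10 and Akt1 did not pass. Among 5 genes of the growth hormone input, 2 fell, Ghr and Jak2 (log2 fold change -0.88), and 1 rose, Socs2 (0.81), a feedback inhibitor, counts too small to read against the shares of all genes. Igf2bp2, a protein that binds Igf2 messenger RNA, had a log2 fold change of -3.29, which was -0.86 with a pseudocount of 1. The calls of Igfals, Grb14, Pik3r2, Foxo3 and Socs2 did not hold under every alternative, with limma adjusted p up to 0.0808, 0.129, 0.0502, 0.0683 and 0.0976, respectively. The calls of Igfals, Grb14 and Socs2 were lost each time a Normal replicate was left out, and the log2 fold change of Grb14 was -0.69 without Tumor replicate 2.

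**Figure D4:**
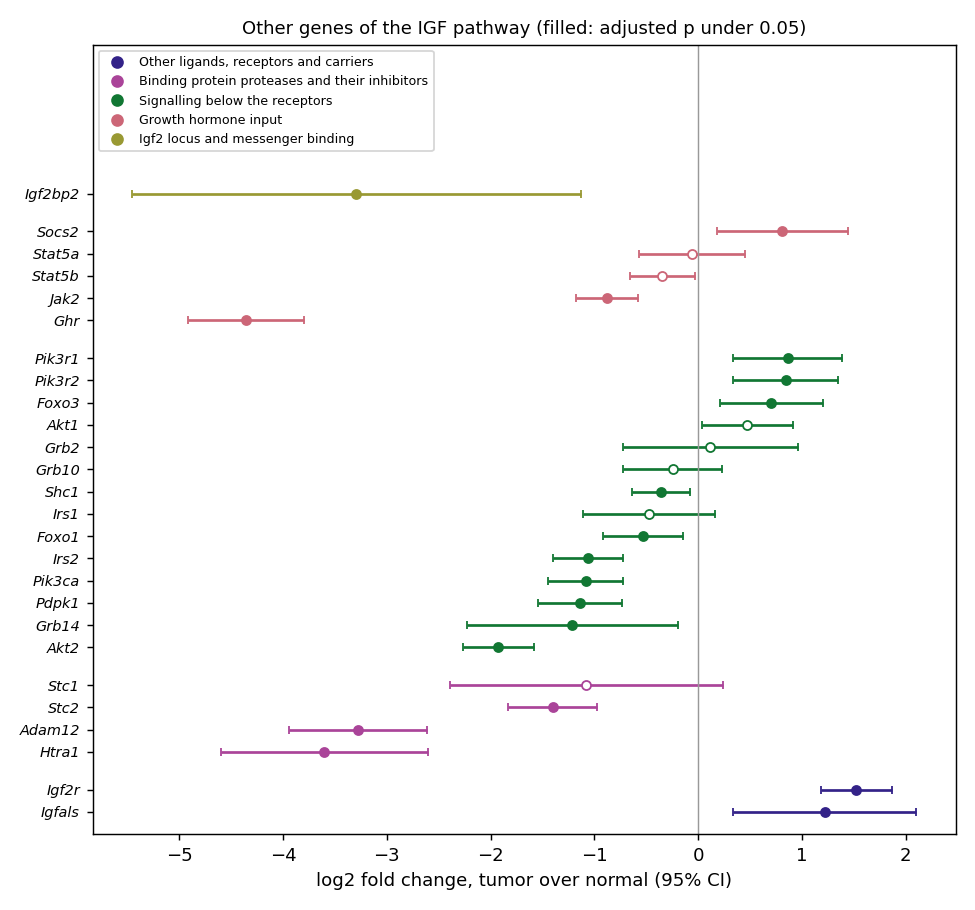
log2 fold changes of tumor over normal with 95% confidence intervals for the 26 other pathway genes that passed the filter, coloured by list. Filled points passed an adjusted p of 0.05, 6 to the right of 0 and 13 to the left, with Ghr (-4.36), Htra1 (-3.60), Igf2bp2 (-3.29) and Adam12 (-3.28) farthest left.

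The other comparison asked whether C646 changed the IGF genes in tumors. None of the 9 members that could be tested passed, and neither did any of all 12083 genes tested, so that 0% were called higher and 0% lower by limma at an adjusted p of 0.05. At an unadjusted p under 0.05 there were 384 genes, 3.18% of those tested, and the smallest adjusted p was 0.99. In each of the 10 genes the C646 and DMSO ranges overlapped, while 4.04% of all genes lay wholly above and 4.52% wholly below DMSO. The median log2 fold change was -0.10 over the 9 members and -0.01 over all genes tested. No gene of the pathway lists passed either, and of the 25 tested 4 lay wholly above DMSO in C646 (Igfals, Foxo1, Stat5a and Stat5b, named after their values were seen) and 0 wholly below.

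Igfbp2 had 205, 27.6 and 75.8 FPKM in DMSO and 28.2, 22.0 and 21.9 FPKM in C646. Igfbp3 had 78.3, 22.8 and 142 FPKM in DMSO and 30.1, 17.4 and 13.6 FPKM in C646. Igfbp4 had 105, 47.3 and 129 FPKM in DMSO and 46.1, 38.1 and 50.4 FPKM in C646. In each of these 3 genes DMSO replicates 1 and 3 were above every C646 tumor, and DMSO replicate 2 lay within the C646 range. The log2 fold changes were -1.66 for Igfbp2 (95% interval -3.20 to -0.13), -1.72 for Igfbp3 (-3.26 to -0.18) and -0.95 for Igfbp4 (-1.81 to -0.10). The unadjusted limma p was 0.0376, 0.0336 and 0.0337 for the 3 genes, and the adjusted p was 0.99 for each.

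Leaving out DMSO replicate 2 moved Igfbp2 to -2.39, Igfbp3 to -2.45 and Igfbp4 to -1.39, with limma adjusted p of 0.186, 0.168 and 0.104. These were the lowest adjusted p among the alternatives, which reached 1 for all 3 genes. Without DMSO replicate 1 Igfbp2 stood at -0.94, and without DMSO replicate 3 Igfbp3 stood at -1.14. The same DMSO replicate 2 was the lowest of its group for Igfbp7, which had 220, 138 and 259 FPKM in DMSO and 159, 131 and 182 FPKM in C646 (log2 fold change -0.35, 95% interval -0.96 to 0.26, or -0.61 without that replicate).

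Igfbp5 was high in all injected tumors, with 2282, 2853 and 1614 FPKM in DMSO and 2899, 2165 and 2488 FPKM in C646. Its log2 fold change was 0.19 (95% interval -0.44 to 0.82). Its rank by FPKM was 9 to 64 of 23691 names in DMSO and 11 to 15 in C646. It made up 78.9%, 92.2% and 72.5% of the binding protein sum in the 3 DMSO tumors and 89.8% to 91.5% in C646. The sum of the other 5 binding proteins was 609, 240 and 613 FPKM in DMSO and 212 to 282 FPKM in C646, so that DMSO replicate 2 again lay with the C646 tumors.

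Igfbp6 had 0.783, 4.29 and 7.19 FPKM in DMSO and 4.24, 4.09 and 14.3 FPKM in C646 (log2 fold change 1.10, 95% interval -0.95 to 3.15). Igf1 had 0.685, 0.939 and 1.00 FPKM in DMSO and 1.12, 0.843 and 2.22 FPKM in C646 (log2 fold change 0.55, 95% interval -0.62 to 1.73). Igf2 was under the filter, with 0.363, 0 and 0.366 FPKM in DMSO and 0.107, 0.0422 and 0.166 FPKM in C646. The intervals of these low genes leave room for changes of more than 1 on the log2 scale in the upward direction for Igf1 and Igfbp6.

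The receptors had the smallest log2 fold changes of the 9. Insr had 9.96, 7.83 and 6.51 FPKM in DMSO and 9.24, 7.66 and 8.79 FPKM in C646 (log2 fold change 0.10, 95% interval -0.37 to 0.56). Igf1r had 0.757, 1.14 and 1.93 FPKM in DMSO and 1.22, 0.926 and 1.21 FPKM in C646 (log2 fold change -0.10, 95% interval -1.19 to 1.00). Markers of other cell types were compared between these tumors as well, and none of those that could be tested passed. Adipocyte markers summed to 12.3 to 53.4 FPKM in DMSO and 62.7 to 311 FPKM in C646. Of these, 5 of 8 were higher in every C646 tumor than in any DMSO tumor, beside 4.04% of all genes tested. Plin1, 1 of the 5, reached at most 0.509 FPKM in DMSO. It passed the filter through the C646 tumors alone, so it could come out only as higher. Lep, also among the 5, reached at most 0.944 FPKM, and Lep and Pparg were under the filter and not tested. The count that holds Plin1 and Lep is given as a description. Fibroblast markers summed to 213 to 469 FPKM in DMSO and 351 to 741 FPKM in C646, and luminal markers to 2577 to 3075 and 2394 to 2887 FPKM. The fibroblast and the luminal sums overlapped between the groups. Their part in the values above was not tested.

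Side by side over the 4 groups, the mean of Igfbp5 was 123 ± 19.8 FPKM in normal, 938 ± 348 in untreated tumors, 2250 ± 620 in DMSO and 2517 ± 368 in C646 (SD, n = 3). The mean of Igf1 was 35.3 ± 1.32 FPKM in normal, 1.37 ± 0.523 in untreated tumors, 0.875 ± 0.167 in DMSO and 1.39 ± 0.728 in C646. Insr had means of 6.64 ± 0.944, 3.59 ± 0.383, 8.10 ± 1.74 and 8.56 ± 0.814 FPKM in the same order, and of the tumor groups the untreated tumors had a mean below the normal one. Igfbp6 had means of 105 ± 30.8, 7.15 ± 4.48, 4.09 ± 3.21 and 7.53 ± 5.82 FPKM. The untreated and the injected samples were in tables with different sets of rows that were computed apart, and no test was made between them.

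For each member that passed the test between tumor and normal, the genes nearest to it over the 12 samples were found by the root mean square (RMS) difference of centred log2 levels among 12630 genes. A value of 0 would mean the same pattern. Igf1 was nearest to Tns1 (0.286), Was (0.291) and Mmd (0.316), and Igf2 had no gene nearer than Ndrg2 (0.729). Insr had the nearest of all, B630005N14Rik (0.0827), followed by Gpatch8 and Clock. Igf1r was nearest to rows that joined Il4i1 with Nup62 (0.203) and Ahnak with Mir6367 (0.205). Igfbp5 was nearest to a row that joined Trps1 with Mir1907 (0.327), then to Rhpn2 (0.383) and Celsr2 (0.399). Igfbp2 was nearest to Prss53 (0.417), Igfbp4 to Hk2 (0.264), Igfbp6 to Sfrp5 (0.359) and Igfbp7 to Jag1 (0.221), and for Igfbp7 the next were Inafm2 (0.229) and Lamb1 (0.263). The 12 samples share tissue, strain and processing within each experiment, so nearness describes these samples only. The untreated and the injected samples were computed apart and are joined here, so an offset between them would enter these values.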

How the data were processed

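FPKM per gene was analysed in 12 RNA-seq samples, grouped by their labels. The authors trimmed the reads, mapped them to mm10 with TopHat2 2.1.1, computed FPKM with Cufflinks 2.2.1 and deposited 1 FPKM table per sample. FPKM was summed over rows of the same name; Igfbp5 had 2 rows in each DMSO and C646 table. limma 3.58.1 in R 4.3.3 (eBayes with a variance trend) was run on log2(FPKM + 0.03125), keeping genes that reached 1 FPKM in 3 or more of the 6 samples of a comparison. P-values were adjusted over all genes kept (Benjamini-Hochberg, threshold 0.05). The fold changes of low genes depend on the pseudocount, as for Igf2, at -2.46 here and -1.01 with a pseudocount of 1. The script was tested on simulated data. The depth of each sample is unknown, and 3 replicates per group limit the precision. P-values cover the spread between mice or, for normal tissue, pools.

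The named genes were the 10 members, up to 3 genes per list and direction with the largest log2 fold change among those that passed, and the 3 genes nearest to each member that passed; signalling genes beyond these are named only to complete a count. Ins1, Igfbp1, Pappa, Pappa2, Ms4a1 and Vegfa were named after their values were seen. Members and lists were chosen with earlier results of these data known. H19, Igf2bp1 and Pdgfra, and Krt14 in the injected tumors, were not analysed here, and 2 genes of the signalling list are not reported here. Gene positions came from GENCODE vM21. Alternatives were other pseudocounts (1 and 0.25), no filter or a filter at 5 FPKM, median ratio scaling, no variance trend, a replicate block and leaving out each replicate. Taking Igfbp5 from its higher row alone was added after seeing the data. Python 3.11.15 with pandas 2.3.3 made the summaries.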

Additional observations from a re-analysis of the deposited data

How the results depend on the processing

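All 122 values of the members under the alternatives kept their direction and their side of the threshold for tumor over normal. For C646 over DMSO 108 kept both, and 4 changed sign without passing the test, all with 1 replicate left out. There Igf1r ranged from -0.41 to 0.24, Igfbp5 from -0.030 to 0.38 and Insr from -0.050 to 0.26 on the log2 scale. DMSO replicate 3 was the one left out for each sign change, and for Igf1r also C646 replicate 2 (0.03). Igfbp6 ranged from 0.18 without DMSO replicate 1 to 1.75 without DMSO replicate 3. With 1 replicate left out, the genes lower in tumor numbered 2570 (without Normal replicate 3) to 4172, beside 4128 in all samples and 2686 without Normal replicate 2. The pathway genes called numbered 10 (without Normal replicate 3) to 17, with 12 without Normal replicate 1 or 2, beside 19 in all samples. Leaving out a Normal replicate also removed from the test every gene at 1 FPKM in the normal samples alone, since the filter asks for 3 samples. Igf2 and Igf1r were among them, and the part of such genes in the smaller counts was not tested. Genes lower in C646 numbered 0 to 12, with 12 only without DMSO replicate 2. The deviations of same-numbered samples had r of -0.0982 to 0.0104 for tumor and normal and 0.0699 to 0.175 for C646 and DMSO. Differently numbered samples were not set beside them, so a pairing by number was not tested. With the replicate block 3439 genes were higher and 3827 lower in tumor. All 9 calls of the members stood, though Igf2 and Igf1r could be called only as lower. Foxo3 (limma adjusted p = 0.0563) and Grb14 (0.0747) were lost. Of the values of the named pathway genes 166 kept the call and 21 lost it. Without a Normal replicate the call was lost for Grb14, Igfals and Socs2 (any of the 3), Foxo3 (replicate 2 or 3) and Pik3r2 (replicate 3). Without a Tumor replicate it was lost for Igfals (1 or 2), Socs2 (1 or 3) and Foxo3 (2), and Grb14 also lost it without the filter and without the variance trend. The cause was not tested. The unknown depth of each sample leaves the error of genes near 1 FPKM, such as Igf2 and Igf1r, to the replicates alone.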

Other observations

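Igfbp3 did not pass between tumor and normal, and its nearest genes were looked up after its values had been seen. Over the 12 samples the nearest were Bhlhe40 (RMS difference 0.501), Rnf217 (0.522) and Plk2 (0.555). Vegfa, the vascular growth factor, was the gene in place 6 (0.575). Vegfa had 56.4, 73.6 and 73.4 FPKM in normal, 12.4, 34.5 and 26.4 FPKM in tumor, 183, 19.6 and 104 FPKM in DMSO and 43.8, 23.6 and 22.4 FPKM in C646. In the DMSO tumors Vegfa was high in replicates 1 and 3 and low in replicate 2, as Igfbp3 was, which its choice by nearness to Igfbp3 over these samples already fixed.

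The 2 rows of Igfbp5 in the injected tumors differed widely in level. The smaller row held 36.2 to 63.6 FPKM and the larger 1578 to 2842 FPKM. Socs2 also spread in DMSO, at 59.0, 19.7 and 8.33 FPKM, while the C646 tumors held 16.0 to 18.4 FPKM.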
